A study of Homo sapiens with 12 samples.

Results

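The heat shock proteins and molecular chaperones described here are 80 of the 33694 human gene identifiers listed in the count files. They were chosen by symbol among genes that GENCODE 29 types as protein-coding: HSPA, HSPB, HSP90 and DNAJA, DNAJB or DNAJC names, HSPD1, HSPE1, HSPH1, HSF1, TCP1 and the CCT genes. IFT25 entered through its GENCODE 29 name, HSPB11. By family they were 14 HSP70 genes, 3 HSP90 genes, HSPH1, the HSP60 and HSP10 genes HSPD1 and HSPE1, 8 small HSP genes, 42 J-domain genes, 9 genes of the chaperonin TRiC and the transcription factor gene HSF1.

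The study profiled 2 human melanoma lines, A375 and A375-BIR, whose name stands for resistance to BRAF inhibitors. A375 is a widely used melanoma line that carries an activating BRAF mutation, and dabrafenib is an inhibitor of mutant BRAF kinase. Each line was given dabrafenib at 200 nM for 48 h or the vehicle DMSO at 0.1%, with 3 samples in each of the 4 groups, which the labels call biological replicates. Messenger RNA was read as tags from the 3′ ends of transcripts. Whether A375-BIR is a single clone, and how long it had been kept in drug, is not given in the sources used here.

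The files of A375 DMSO replicates 2 and 3 list mouse gene identifiers and entered no comparison, so A375 in DMSO is represented by 1 library. The stamp in that library's file name also gives another date than those of the other 9 human libraries. Libraries with the same date are called a run here, and whether the date marks sequencing or later processing is not given. In every comparison with that library the run and the group cannot be told apart. Counts on genes ran from 198690 to 1999840 per library: 391210 to 971347 for A375-BIR in dabrafenib, 579288 to 1100917 for A375-BIR in DMSO, 198690 to 493398 for A375 in dabrafenib and 1999840 for A375 in DMSO. Mitochondrial genes took 4.63 to 7.21% of counts in the A375-BIR libraries and 10.7 to 15.1% in the A375 libraries. The summed level of 7 melanocytic markers was 192 to 308 CPM (counts scaled to each library's total) in A375-BIR, 1420 in A375 in DMSO and 2805 to 3317 in A375 in dabrafenib. In A375-BIR that sum was carried by MITF (152 to 208 CPM) and SOX10 (34.7 to 72.2 CPM), regulators of the lineage found in every library. TYR had 0 counts in all A375-BIR libraries, PMEL in all A375-BIR dabrafenib libraries, and MLANA 1 count over the 10 human libraries. Markers of other cell types were near 0: at most 11.1 CPM for epithelial, 2.03 for leukocyte, 0.99 for endothelial, 1.87 for erythroid and 30.4 for fibroblast genes, with EPCAM, KRT5, CD3E, VWF, CDH5, HBA1 and HBA2 at 0 throughout. In bulk RNA of this kind, fewer cells of a type and less RNA per cell cannot be told apart.

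Chaperones bind unfolded or partly folded proteins and, in many cases, use cycles of ATP hydrolysis to help them fold. HSP70 proteins bind short exposed stretches under the guidance of J-domain proteins, HSP90 proteins act late on kinases, receptors and other clients, and the ring-shaped chaperonins enclose whole proteins: TRiC in the cytosol, with actin and tubulin among its substrates, and HSP60 with its lid HSP10 in mitochondria. HSF1 switches on many of these genes after heat or other stress to proteins, and mutant BRAF kinase is itself an HSP90 client.

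Sequences around the starts of the members were examined because HSF1 binds repeats of the unit GAA and its reverse complement TTC. Genes for chaperones of the endoplasmic reticulum (ER) carry another element. RefSeq promoter windows of 300 bases on GRCh38.p14, from 250 before to 50 after the start, matched 70 of the 80 members. The 13-letter heat shock element GAANNTTCNNGAA, or TTCNNGAANNTTC, searched on both strands with any overlap allowed, was found in 7 of these 70 (10.0%) and in 171 of all 34943 windows (0.489%). The 7 were HSPA6, HSPD1, HSP90AB1, DNAJB6, DNAJA1, HSPA8 and HSP90AA1, with the DNAJA1 match lying after the start. Other members had no window or no exact match to these letters, which does not show that they lack a heat shock element. The ER stress response element, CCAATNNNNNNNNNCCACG or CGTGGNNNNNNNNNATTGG, was found in HSPA5 and HSP90B1 only, 2 of 70 (2.86%) against 27 of all windows (0.0773%). Matched letters are descriptions of these windows and not measured binding sites. The matches in the genes whose levels are described most closely below are shown here, read 5′ to 3′ on the gene's strand with the matching letters in capitals.
HSP90AA1: TTCCGGAAGGTTC
HSP90AB1, upstream match: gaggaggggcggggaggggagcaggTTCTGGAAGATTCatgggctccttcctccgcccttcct
HSP90AB1, downstream match: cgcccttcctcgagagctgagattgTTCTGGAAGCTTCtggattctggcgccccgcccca
HSPA8, upstream match: GAAAGTTCCAGAA
HSPA8, downstream match: TTCTGGAAGGTTC
HSPD1: TTCTGGAAAGTTCTGGAA
HSPA5: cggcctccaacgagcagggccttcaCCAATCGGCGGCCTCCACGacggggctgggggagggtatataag
HSP90B1, upstream match: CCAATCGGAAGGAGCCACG
HSP90B1, downstream match: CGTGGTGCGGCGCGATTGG

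The HSP90AA1 match lies on the minus strand at chr14:102087120-102087132, and the HSP90AB1 stretches on the plus strand at chr6:44247753-44247815 and chr6:44247806-44247865. Those of HSPA8 are on the minus strand at chr11:123062354-123062366 and chr11:123062179-123062191. In HSPD1, on the minus strand at chr2:197500068-197500085, 2 overlapping matches are joined, and HSPD1 and HSPE1 are divergent neighbours there. The HSPA5 stretch is on the minus strand at chr9:125241366-125241434, and the HSP90B1 matches on the plus strand at chr12:103930216-103930234 and chr12:103930321-103930339. Flanks stop where GENCODE 29 places an exon of any transcript, and a match that lies inside such an exon is shown without flanks.

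Of the 80 members, 63 passed the filter on low counts and 17 did not. Among those 17, DNAJA4, DNAJB7, DNAJB8, HSPB2, HSPB7 and HSPB9 had 0 counts in all 10 human libraries. The other 11 reached at most 11.0 CPM in any library, which was DNAJB5. HSPA6, a strictly stress-inducible HSP70 gene, had 6 counts in A375 in DMSO, 2 in A375 in dabrafenib and 0 over the A375-BIR libraries. Where all A375-BIR libraries of a treatment had 0 counts, levels of up to 1.07 CPM in DMSO or 1.47 CPM in dabrafenib remain possible by counting error alone.

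The 2 lines were first compared in dabrafenib, 3 libraries against 3 from the same run, which asks how the chaperones of the resistant line differ from those of its parent when both are exposed to the drug. The chaperonins were higher in A375-BIR: 7 of the 8 tested TRiC subunit genes and both HSP60 and HSP10 genes, by 1.43- to 3.25-fold. Lower in A375-BIR were the inducible HSP70 genes HSPA1A and HSPA1B with the tissue-restricted HSPA2, 10 of 34 J-domain genes, and HSF1. None of the 3 HSP90 genes, HSPH1 or the 3 tested small HSP genes passed the test. In all, 27 of 63 tested members passed at an adjusted p under 0.05, 13 higher and 14 lower, or 42.9%, beside 42.7% of all 10236 genes tested (22.6% higher and 20.2% lower). Their median log2 difference was 0.05, beside 0.04 over all genes.

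TRiC is a double ring of 8 different subunits, and its genes had a median log2 difference of 1.09 in dabrafenib. CCT5 (chr5:10249921-10266412 on GRCh38) was at 658, 698 and 481 CPM in A375-BIR and at 184, 189 and 200.3 CPM in A375. CCT8 (chr21:29055805-29073797) was at 168, 241 and 122 CPM in A375-BIR and at 66.9, 63.6 and 39.0 CPM in A375. For both genes every A375-BIR library was above every A375 library. The log2 difference was 1.70 ± 0.19 (SE) for CCT5, adjusted p = 2.69e-09, and 1.57 ± 0.24 for CCT8, adjusted p = 1.54e-06, which are 3.25- and 2.97-fold.

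Somewhat smaller differences were measured for TCP1, CCT2, CCT4 and CCT7. CCT2 was at 267, 330.1 and 331 CPM in A375-BIR against 178, 132 and 111 in A375, a log2 difference of 1.08 ± 0.19 (adjusted p = 1.71e-05). CCT7 was at 231, 208 and 148 CPM against 103, 79.0 and 94.6, a difference of 1.12 ± 0.21 (adjusted p = 3.99e-05). TCP1, which gives the complex its older name, was at 114, 120.4 and 84.0 CPM against 48.7, 63.6 and 44.5, a difference of 1.01 ± 0.24 (adjusted p = 0.000716). Libraries of the 2 lines did not overlap for these 3 genes. In CCT4 they did, since the lowest A375-BIR library (70.9 CPM) was below the highest A375 library (72.3 CPM), and the log2 difference was 1.11 ± 0.27 (adjusted p = 0.00108).

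CCT3 and CCT6A stood apart from the other subunits. CCT3 was at 359, 239 and 300.3 CPM in A375-BIR and at 264, 169 and 195 CPM in A375. These ranges overlap, the log2 difference was 0.52 ± 0.19 (adjusted p = 0.0281), and the call was lost without A375-BIR dabrafenib replicate 1, where the difference was 0.34, and without A375 dabrafenib replicate 2 or 3. CCT6A was at 477, 395 and 455 CPM in A375-BIR against 444, 485 and 539.8 CPM in A375. Its levels overlapped, and its log2 difference of -0.13 had a 95% interval of -0.46 to 0.20. CCT6B, the testis-type counterpart of CCT6A, did not pass the filter on low counts.

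**Figure D1:**
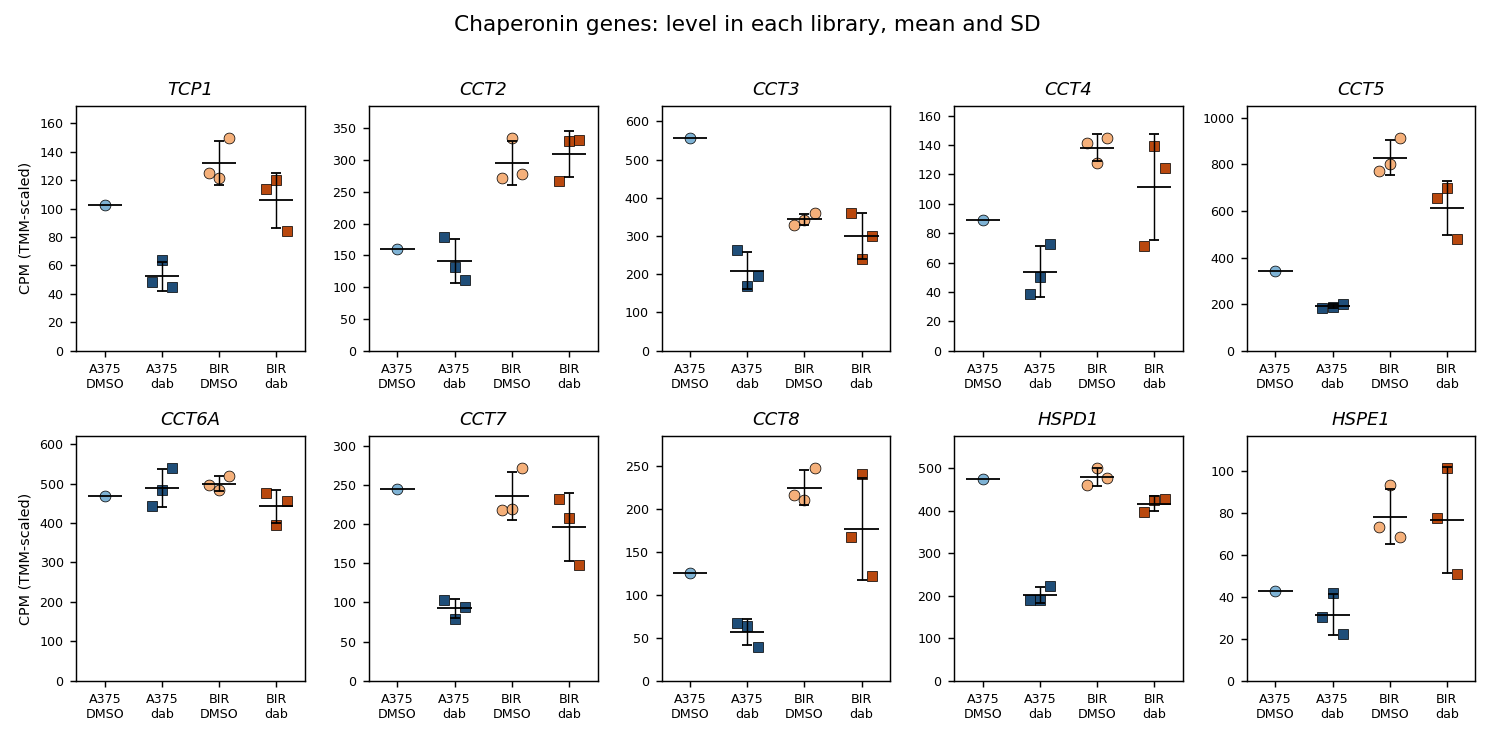
Levels of the tested TRiC subunit genes and of HSPD1 and HSPE1, in CPM on TMM-scaled totals (y axis), for each library of the 4 groups (x axis). Points are libraries, horizontal lines group means and bars 1 SD; A375 in DMSO is 1 library. For CCT5, CCT8, CCT2, CCT7, TCP1, HSPD1 and HSPE1 the 3 A375 dabrafenib points all lie below the 3 A375-BIR dabrafenib points, and CCT6A shows no such gap.

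The mitochondrial chaperonin genes HSPD1 and HSPE1, which lie head to head on chromosome 2, differed in the same direction. HSPD1 (HSP60, chr2:197486581-197516737) was at 398, 426 and 427 CPM in A375-BIR and at 191, 191 and 223 CPM in A375, a log2 difference of 1.07 ± 0.18 (adjusted p = 5.18e-06). HSPE1 (HSP10, chr2:197499994-197503457) was at 77.5, 101 and 50.9 CPM against 30.4, 41.7 and 22.3 CPM, a difference of 1.23 ± 0.29 (adjusted p = 0.000827). No A375 library reached the lowest A375-BIR library for either gene. In contrast, HSPA9, the mitochondrial HSP70, was at 232, 234 and 196 CPM in A375-BIR and at 276, 325 and 267 CPM in A375. Its log2 difference of -0.39 ± 0.18 missed the threshold (adjusted p = 0.0722) although the libraries did not overlap.

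The share of mitochondrial transcripts and of MALAT1 moved with these differences: the A375 dabrafenib libraries held 10.7 to 15.1% mitochondrial counts and 5.08 to 8.60% on the nuclear RNA MALAT1, against 4.88 to 7.21% and 2.36 to 5.78% in A375-BIR in dabrafenib. The part of these shares in the results was not tested. Depth differed too. With every library thinned to the smallest total, an alternative chosen after seeing the data, 17 members were called between the lines in dabrafenib, and of the chaperonin genes called in the full data only TCP1 was lost.

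HSP70 genes moved in both directions between the lines in dabrafenib, 3 of 11 tested higher and 3 lower, beside 22.6% and 20.2% of all genes. HSPA1A (chr6:31815464-31817946) and HSPA1B (chr6:31827735-31830255) encode the nearly identical stress-inducible HSP70 proteins. HSPA1A was at 42.0, 94.6 and 33.1 CPM in A375-BIR and at 129.8, 197 and 117 CPM in A375, a log2 difference of -1.43 ± 0.27 (adjusted p = 8.47e-05). HSPA1B was at 14.9, 22.4 and 5.09 CPM against 50.7, 52.6 and 55.6 CPM, a difference of -1.78 ± 0.35 (adjusted p = 9.18e-05). For both genes all A375 libraries were above all A375-BIR libraries, but reads shared by the copies cannot be assigned with certainty to either.

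HSPA2, an HSP70 gene best known from the testis, was at 1.87, 3.44 and 0 CPM in A375-BIR (4 counts in all) and at 16.2, 21.9 and 16.7 CPM in A375 (21 counts). The groups did not overlap and the log2 difference was -3.14 ± 0.75 (adjusted p = 0.000831). Higher in A375-BIR were HSPA14, a ribosome-associated HSP70, and HSPA8, the constitutive cytosolic HSP70. HSPA14 was at 40.1, 37.8 and 30.5 CPM in A375-BIR against 14.2, 11.0 and 22.3 CPM in A375, without overlap, a difference of 1.38 ± 0.39 (adjusted p = 0.00386).

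For HSPA8 the values were 119, 84.2 and 66.2 CPM in A375-BIR against 46.6, 68.0 and 50.1 CPM in A375. They overlap, the difference was 0.76 ± 0.25 (adjusted p = 0.0146), and the call was lost without A375-BIR dabrafenib replicate 1, at 0.46, or without A375 dabrafenib replicate 1. HSPA4, a nucleotide exchange factor of the HSP110 type, was at 189, 163 and 142 CPM against 138, 107 and 111 CPM, without overlap. Its difference of 0.48 ± 0.19 (adjusted p = 0.043) was lost in 6 of 9 fits that left out 1 library, A375-BIR DMSO libraries among them.

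HSPA5, the ER HSP70 also called BiP, was moved by a single library. It was at 605, 1413 and 557 CPM in A375-BIR and at 754, 928 and 785 CPM in A375. With all libraries the log2 difference was 0.06 ± 0.27 (adjusted p = 0.873). Without A375-BIR dabrafenib replicate 2, the library at 1413 CPM, it was -0.49 and passed the test (adjusted p = 0.022).

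**Figure D2:**
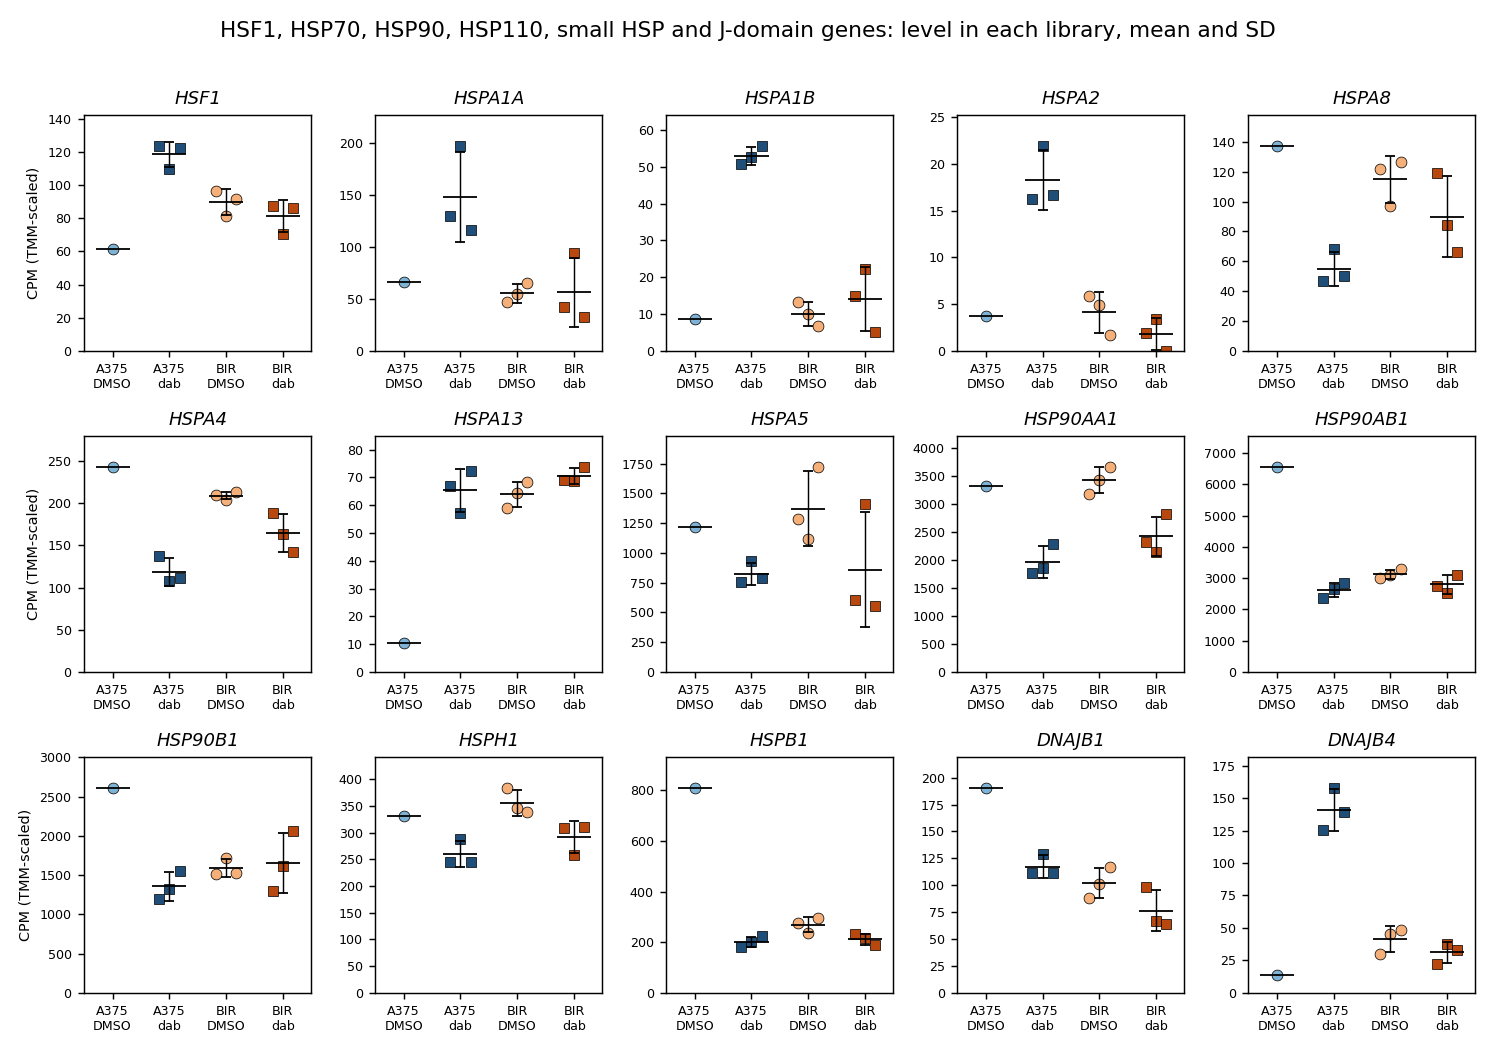
Levels of HSF1 and of HSP70, HSP90, HSP110, small HSP and J-domain genes, in CPM on TMM-scaled totals (y axis), for each library of the 4 groups (x axis). Points are libraries, horizontal lines group means and bars 1 SD. A375 in DMSO, a single library, is the highest point for HSP90AB1, HSP90B1, HSPB1 and DNAJB1 and the lowest for HSPA13 and DNAJB4, and 1 of the 3 A375-BIR dabrafenib points stands above the other two for HSPA5.

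HSP90 genes and HSPH1 were not called between the lines in dabrafenib. HSP90AA1, the inducible cytosolic form, was at 2313, 2144 and 2814 CPM in A375-BIR and at 1762, 1847 and 2293 CPM in A375. HSP90AB1, the constitutive form, was at 2759, 2522 and 3112 CPM against 2366, 2639 and 2827 CPM. HSP90B1, the ER form also called GRP94, was at 1293, 1611 and 2061 CPM against 1192, 1323 and 1553 CPM. All 3 genes overlapped between the lines. The 95% intervals of the log2 difference were -0.07 to 0.68 for HSP90AA1, -0.27 to 0.48 for HSP90AB1 and -0.08 to 0.66 for HSP90B1. HSPH1, the main HSP110, was at 308, 258 and 310.4 CPM against 245, 287 and 245 CPM, with an interval of -0.17 to 0.50.

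HSF1 transcripts were at 87.7, 70.5 and 86.5 CPM in A375-BIR in dabrafenib and at 124, 109.7 and 122 CPM in A375 in dabrafenib. The libraries did not overlap, and the log2 difference was -0.52 ± 0.21 (adjusted p = 0.0403). That call was lost in 7 of the 9 fits without 1 library, in which the difference ran from -0.61 to -0.43. Transcript level is not a measure of HSF1 activity, which is regulated largely on the protein.

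J-domain proteins deliver clients to HSP70 and start its ATP cycle. Of the 34 tested, 10 were lower in A375-BIR in dabrafenib and 1 was higher (32.4%). Beside these, 42.7% of all genes were called, 20.2% lower and 22.6% higher. The DNAJB class held the largest of these differences. DNAJB2, a chaperone linked to the proteasome, was at 7.47, 3.44 and 12.7 CPM in A375-BIR and at 52.7, 52.6 and 39.0 CPM in A375, a log2 difference of -2.74 ± 0.41 (adjusted p = 1.31e-06). DNAJB4 (chr1:77979175-78017964), a cytosolic HSP40, was at 22.4, 37.8 and 33.1 CPM against 126, 158 and 139 CPM, a difference of -2.25 ± 0.26 (adjusted p = 4.41e-09). Neither gene overlapped between the lines. DNAJB4 shares exonic bases with GIPC2 on the same strand. Reads that fit both genes may have been set aside as ambiguous, so how many of them its count holds is not known.

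DNAJB1, the main stress-inducible HSP40, was at 98.0, 67.1 and 63.6 CPM in A375-BIR and at 112, 129 and 111 CPM in A375. Its difference of -0.57 ± 0.22 (adjusted p = 0.0331) was lost without A375-BIR dabrafenib replicate 2 or 3, or without A375 dabrafenib replicate 1 or 2. DNAJB9, an ER J-domain protein, was at 5.60, 1.72 and 10.2 CPM against 24.3, 21.9 and 5.56 CPM. The ranges of DNAJB9 overlap, and its difference of -1.85 ± 0.59 (adjusted p = 0.0103) was lost without A375 dabrafenib replicate 1 or 2.

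Among the remaining J-domain genes, DNAJC21, a ribosome biogenesis factor, was the 1 gene higher in A375-BIR. It was at 309.8, 299 and 372 CPM there and at 197, 182 and 200.3 CPM in A375, without overlap, a log2 difference of 0.76 ± 0.17 (adjusted p = 0.000518). DNAJC1 (-0.82 ± 0.24), DNAJC3 (-0.69 ± 0.20), DNAJC4 (-1.28 ± 0.43) and DNAJC13 (-0.91 ± 0.23) were lower in A375-BIR without overlap. The mitochondrial J-domain genes DNAJA3 (-0.79 ± 0.28) and DNAJC30 (-0.98 ± 0.36) were lower with overlapping libraries. Leaving out A375 dabrafenib replicate 1 ended the calls of DNAJC3, DNAJA3 and DNAJC30, and leaving out replicate 2 those of DNAJC4, DNAJA3 and DNAJC30. The other 23 tested J-domain genes, with DNAJA1 at 0.29 and DNAJA2 at -0.16 among them, did not pass.

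Small HSPs hold unfolding proteins without ATP. HSPB1 (HSP27) was at 231, 217 and 188 CPM in A375-BIR in dabrafenib and at 180.4, 199.6 and 223 CPM in A375 in dabrafenib. These values overlap, and the 95% interval of the log2 difference was -0.24 to 0.48. HSPB8 was at 3.73, 15.5 and 5.09 CPM against 14.2, 19.7 and 11.1 CPM, also overlapping and not called (adjusted p = 0.172).

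**Figure D3:**
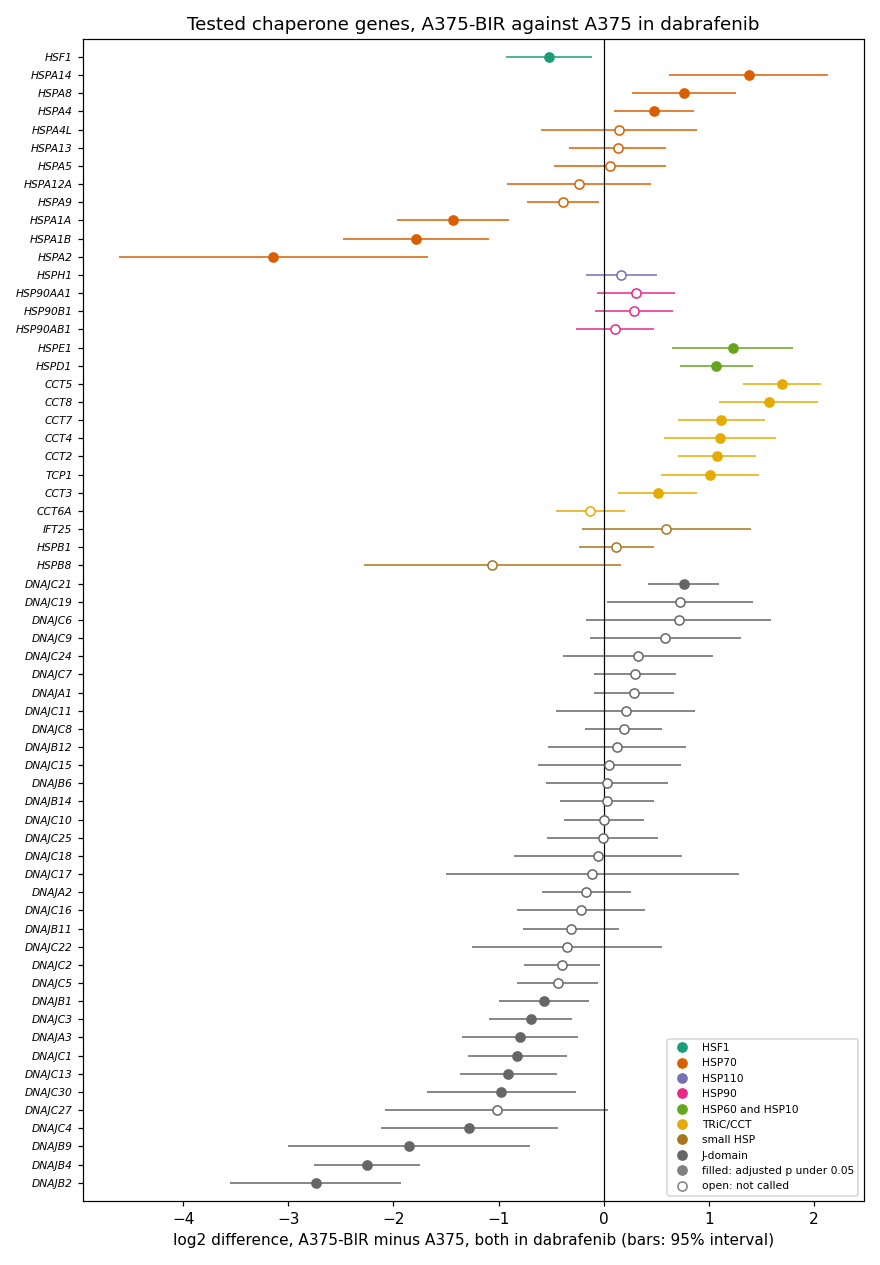
Log2 difference of A375-BIR minus A375, both in dabrafenib, for the 63 tested members (x axis), by family (colour). Bars are approximate 95% intervals; filled points passed at an adjusted p under 0.05. Filled TRiC, HSPD1 and HSPE1 points lie right of 0, and the filled J-domain points lie left of 0 apart from DNAJC21.

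Within A375-BIR, the comparison of dabrafenib with DMSO asks whether the resistant line still answers the drug. None of the 63 tested members passed the edgeR test, beside 2.46% of all genes (1.36% higher and 1.10% lower). DESeq2 also called 0, and 6 members had an unadjusted p under 0.05. The members' median log2 change was -0.05 (0.02 over all genes). HSPA5 was at 1281, 1115 and 1722 CPM in DMSO and at 605, 1413 and 557 CPM in dabrafenib, a log2 change of -0.67 ± 0.26 (adjusted p = 0.223). Without A375-BIR dabrafenib replicate 2 the HSPA5 change was -1.23, with an adjusted p of 1.54e-06. It was also called, at -0.70 with an adjusted p of 0.00492, when no filter on low counts was used.

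TRiC genes in A375-BIR had changes from -0.43 (CCT5) to 0.06 (CCT2). CCT5 was at 771, 803 and 914 CPM in DMSO, above all 3 dabrafenib libraries, and its change of -0.43 ± 0.17 did not pass (adjusted p = 0.188). CCT5 at -0.52 and CCT8 at -0.57 passed without dabrafenib replicate 2. HSP90AA1 was at 3184, 3437 and 3663 CPM in DMSO, again above every dabrafenib library, with a change of -0.50 ± 0.19 (adjusted p = 0.171). HSP90AA1 passed at -0.61 without dabrafenib replicate 3. HSPA4L, an HSP110-type gene, had a change of -0.86 ± 0.28 (adjusted p = 0.0898) and passed at -1.39 without dabrafenib replicate 1.

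Of the members that differed between the lines in dabrafenib, HSPA2 had the lowest change within A375-BIR, -1.16 ± 0.85 (adjusted p = 0.594), at 5.83, 4.95 and 1.67 CPM in DMSO. HSPA1A was at 46.6, 54.5 and 65.0 CPM in DMSO, inside its range in dabrafenib, a change of 0.06 with a 95% interval of -0.49 to 0.60. HSPD1 was at 461, 501 and 478 CPM in DMSO, above all 3 dabrafenib libraries, a change of -0.20 with an interval of -0.51 to 0.10. HSF1 was at 96.6, 81.2 and 91.6 CPM in DMSO, with a change of -0.13 and an interval of -0.50 to 0.24. DNAJB4 was at 30.0, 45.6 and 48.3 CPM in DMSO, a change of -0.44 ± 0.27 (adjusted p = 0.498).

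In A375, 3 dabrafenib libraries were set against the 1 DMSO library, whose spread is assumed to be like that of the other groups. With that limit, all 3 HSP90 genes, 6 of 8 TRiC genes, HSPD1 and HSPB1 were lower in dabrafenib, while HSF1, HSPA1A, HSPA1B, HSPA13 and 8 of 34 J-domain genes were higher. In all 30 of 63 members passed, 14 higher and 16 lower (47.6%), beside 38.6% of all genes (17.9% higher and 20.7% lower). The DMSO library lay outside the range of the dabrafenib libraries for 45 of the 63, called or not, a count not made over all genes. Run and treatment cannot be told apart here, and the same A375 dabrafenib libraries enter the comparison between the lines.

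HSP90AB1 (chr6:44246166-44253888) was at 6555 CPM in A375 in DMSO and at 2366, 2639 and 2827 CPM in dabrafenib, a log2 change of -1.33 ± 0.25 (adjusted p = 6.01e-05). HSP90B1 was at 2610.1 CPM in DMSO, above every dabrafenib library, a change of -0.95 ± 0.25 (adjusted p = 0.00273). HSP90AA1 was at 3326 CPM in DMSO and changed by -0.76 ± 0.26 (adjusted p = 0.0172), a call lost without A375 dabrafenib replicate 1 or 2. All 3 HSP90 genes thus fell in this comparison, by 1.70- to 2.51-fold. HSPB1 fell from 809.6 CPM to 180.4, 199.6 and 223 CPM, a log2 change of -2.03 ± 0.21 (adjusted p = 1.76e-09).

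Of the chaperonins, CCT3 was at 557 CPM and CCT7 at 244 CPM in A375 in DMSO, and both were above all 3 dabrafenib libraries. Their log2 changes were -1.40 ± 0.23 (adjusted p = 1.21e-05) and -1.40 ± 0.25 (adjusted p = 2.73e-05). HSPD1 was at 475 CPM in DMSO, again above all dabrafenib libraries, a change of -1.26 ± 0.22 (adjusted p = 2.06e-05). CCT8 (-1.06), TCP1 (-0.93), CCT4 (-0.84) and CCT5 (-0.84) also passed. TCP1 was lost without A375 dabrafenib replicate 1, and CCT4 without replicate 1 or 2. CCT2 (-0.14), CCT6A (0.05) and HSPE1 (-0.35) did not pass.

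HSP70 genes again split. HSPA8 was at 137 CPM and HSPA4 at 243 CPM in DMSO, both above their dabrafenib libraries, and they fell by 1.30 and 1.01 on the log2 scale. HSPA1B was at 8.66 CPM in DMSO and 50.7, 52.6 and 55.6 CPM in dabrafenib, a change of 2.58 ± 0.45 (adjusted p = 2.54e-05). HSPA1A was at 66.8 CPM in DMSO and changed by 1.19 ± 0.33 (adjusted p = 0.00532), a call lost without A375 dabrafenib replicate 2. HSPA13, a microsomal HSP70 relative, was at 10.5 CPM in DMSO and at 66.9, 57.0 and 72.3 CPM in dabrafenib, a change of 2.59 ± 0.37 (adjusted p = 1.1e-06). HSPA2, at 3.71 CPM in DMSO (6 counts), changed by 2.28 ± 0.75 (adjusted p = 0.0154). HSPA5, at 1214 CPM in DMSO, had a change of -0.56 ± 0.36 and was not called.

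HSF1 was at 61.2 CPM in A375 in DMSO, below the 3 dabrafenib libraries at 124, 109.7 and 122 CPM, a log2 change of 0.95 ± 0.26 (adjusted p = 0.00449). DNAJB4 had the smallest adjusted p of the J-domain genes and went from 13.6 CPM in DMSO to 126, 158 and 139 CPM, a change of 3.36 ± 0.36 (adjusted p = 3.17e-09). DNAJB9 (5 counts in DMSO), DNAJC6 (4 counts), which uncoats clathrin vesicles, and DNAJC19 (9 counts), part of the mitochondrial import motor, rose by 2.63, 2.34 and 2.31, and DNAJC6 was lost without A375 dabrafenib replicate 2. DNAJB11 and DNAJC3, ER co-chaperones of BiP, rose by 1.08 and 0.77, and DNAJC1, a J-domain protein of the ER membrane, by 1.19. DNAJC2, a ribosome-associated J-domain protein, was called higher at 0.68. The calls of DNAJC3 and DNAJC2 were lost without A375 dabrafenib replicate 1 and replicate 3 respectively. DNAJB1 (-0.68), the splicing-associated DNAJC8 (-0.72) and the mitochondrial DNAJC11 (-1.24) fell, with the DNAJB1 call lost without A375 dabrafenib replicate 1 or 3. HSPB8 had 2 counts in A375 in DMSO against 18 over the dabrafenib libraries, a ratio of 12.9 with a counting interval of 3.09 to 115.

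In DMSO the lines were compared as 3 A375-BIR libraries against the same single A375 library. TRiC genes CCT5, CCT2, CCT8 and CCT4 and the genes HSPE1, HSPA13, HSPA14 and DNAJC19 were among those higher in A375-BIR, and HSPB1, HSP90AB1, HSP90B1, CCT3 and DNAJB2 among those lower. Of 63 members 24 passed, 14 higher and 10 lower (38.1%), beside 51.8% of all genes (25.1% higher and 26.7% lower). Here too run and line cannot be told apart.

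CCT5 was at 771, 803 and 914 CPM in A375-BIR against 341 CPM in A375, a log2 difference of 1.28 ± 0.25 (adjusted p = 4.99e-05). CCT2 (0.89), CCT8 (0.84) and CCT4 (0.63) were also higher, and the CCT4 call was lost in 5 of 9 fits without 1 library. CCT3 was at 329.8, 342 and 359.8 CPM in A375-BIR, below the 557 CPM of A375, and differed by -0.70 ± 0.22 (adjusted p = 0.00904). HSPD1 was nearly level, 461, 501 and 478 CPM against 475 CPM, with a 95% interval of -0.40 to 0.43. HSPE1 differed by 0.89 ± 0.29 (adjusted p = 0.0115), lost without A375-BIR DMSO replicate 2.

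HSPB1 was at 274, 237 and 295 CPM in A375-BIR in DMSO, far below the 809.6 CPM of A375, a log2 difference of -1.59 ± 0.20 (adjusted p = 2.61e-08). HSP90AB1 was at 2995, 3099 and 3275 CPM against 6555 CPM, a difference of -1.07 ± 0.25 (adjusted p = 0.000522). HSP90B1 differed by -0.72 and was lost without A375-BIR DMSO replicate 1, while HSP90AA1 was not called, at 0.05 (interval -0.47 to 0.56). HSPA13 was at 59.1, 64.4 and 68.3 CPM against 10.5 CPM, a difference of 2.58 ± 0.35 (adjusted p = 1.21e-07). HSPA14 was at 45.0, 31.7 and 53.3 CPM against 8.66 CPM, a difference of 2.27 ± 0.40 (adjusted p = 1.39e-05). The A375 library lay outside the A375-BIR range for each of these called genes. It did so for 53 of the 63 tested members, called or not, so this position does not set the called genes apart. That count was not made over all genes.

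Further calls in DMSO included J-domain genes, 5 of 34 tested higher and 5 lower (29.4%), beside 51.8% of all genes called. DNAJB2 was at 5.83, 11.9 and 18.3 CPM in A375-BIR against 47.0 CPM in A375, a difference of -2.10 ± 0.37 (adjusted p = 1.33e-05), and DNAJB1 differed by -0.92. DNAJC4 (-1.72), DNAJC11 (-1.13) and DNAJC8 (-0.59) were lower as well. DNAJC6 (3.13), DNAJC19 (2.79), DNAJB4 (1.55), DNAJC21 (1.13) and DNAJA1 (0.65) were higher, the last of these lost without A375-BIR DMSO replicate 3. IFT25, an intraflagellar transport protein that carries the HSPB11 name, was at 43.3, 46.6 and 40.0 CPM against 10.5 CPM, a difference of 2.04 ± 0.41 (adjusted p = 7.88e-05). HSPA4L (1.04) was higher and HSPA9 (-0.58) lower. Each of these last calls was lost without 1 library, A375-BIR DMSO replicate 2 for HSPA4L and replicate 1 for HSPA9 and DNAJC8.

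The difference between the responses, A375-BIR minus A375, was tested as an interaction. It passed for 19 of 63 members, 9 higher and 10 lower (30.2%), beside 22.6% of all genes (12.7% higher and 9.87% lower). The A375 DMSO library enters this term, the A375 response and the comparison in DMSO, so that those 3 are not independent of one another. DNAJB4 had log2 changes of -0.44 in A375-BIR and 3.36 in A375, a difference of -3.80 ± 0.45 (adjusted p = 1.43e-07). HSPB1 had changes of -0.32 and -2.03, a difference of 1.71 ± 0.27 (adjusted p = 2.33e-05). HSPA13 had changes of 0.15 and 2.59, a difference of -2.44 ± 0.43 (adjusted p = 8.78e-05).

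The difference was positive for several genes that fell in A375, among them CCT3 ( 1.21 ± 0.29), CCT7 (1.18 ± 0.30), HSPD1 (1.05 ± 0.27), HSP90AB1 (1.17 ± 0.32), HSP90B1 (1.01 ± 0.31) and HSPA8 (1.02 ± 0.35). Adjusted p-values for these ran from 0.00289 for CCT3 to 0.0331 for HSPA8. HSPA8 was lost in 5 and HSP90B1 in 3 of the 9 fits without 1 library. HSF1 differed by -1.08 ± 0.32 (adjusted p = 0.015), lost without A375-BIR DMSO replicate 1, and HSPA1B by -2.07 ± 0.62 (adjusted p = 0.0146), lost without the same library. The other TRiC genes did not pass, with differences from -0.22 (CCT6A) to 0.73 (CCT8).

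**Figure D4:**
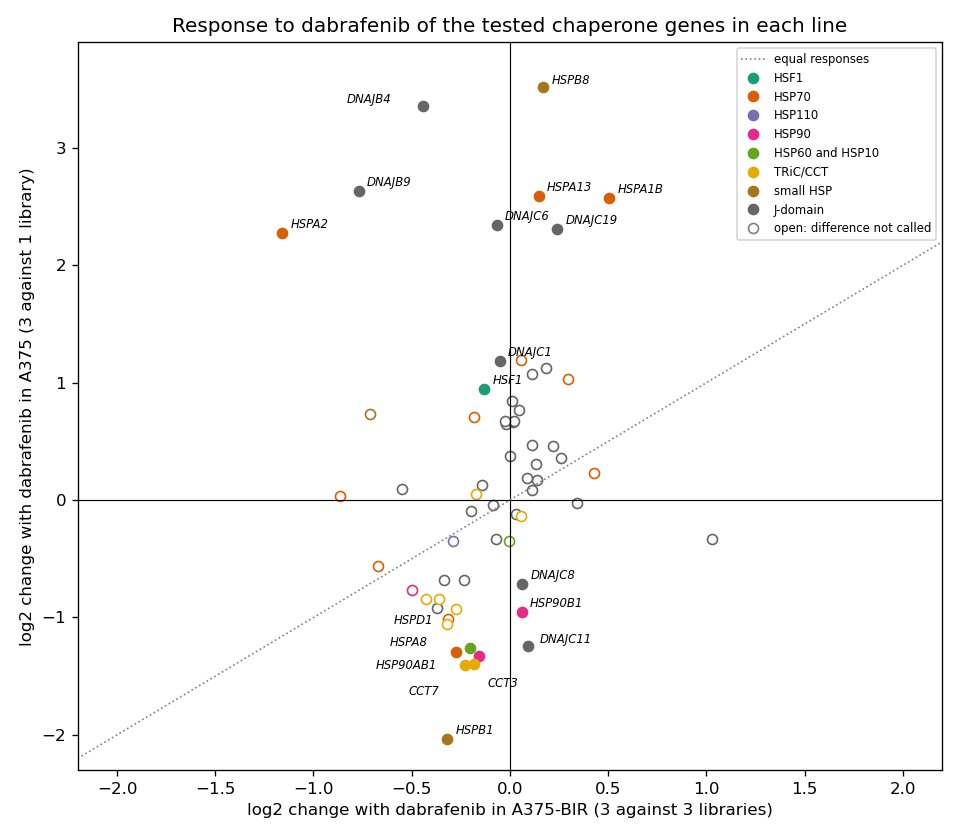
Log2 change with dabrafenib in A375-BIR (x axis, 3 against 3 libraries) and in A375 (y axis, 3 against 1 library) for the 63 tested members, coloured by family. Filled points passed the test of the difference between the responses; the dotted line marks equal changes. HSPB1 at -2.03 in A375 lies lowest, and DNAJB4 at 3.36 and HSPB8 at the top, with A375-BIR changes between -0.44 and 0.17.

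Co-chaperones and other folding genes outside these families were read from lists. Their counts stand beside the shares of all genes given above: 38.6% called in A375 (17.9% higher, 20.7% lower), 42.7% between the lines in dabrafenib (22.6% and 20.2%), 51.8% in DMSO (25.1% and 26.7%) and 22.6% for the difference between responses (12.7% and 9.87%). Of 25 tested co-chaperones of HSP70 and HSP90, 0 passed in A375-BIR, 3 rose and 11 fell in A375, with A375-BIR above A375 for 6 and below it for 1 in dabrafenib, and above for 6 and below for 7 in DMSO. STIP1, which bridges HSP70 and HSP90, was at 338 CPM in A375 in DMSO and at 89.2, 94.3 and 55.6 CPM in dabrafenib, a log2 change of -2.00 ± 0.23 (adjusted p = 1.63e-08). CDC37, the HSP90 co-chaperone for kinases, was at 612 CPM and then 180.4, 171 and 100.2 CPM, a change of -1.95 ± 0.23 (adjusted p = 1.85e-08). FKBP4, an HSP90-binding immunophilin, changed by -2.26 ± 0.32. For all 3 genes every dabrafenib library was below the DMSO library. In A375-BIR in dabrafenib CDC37 was at 322, 244 and 285 CPM, above A375 in dabrafenib by 0.85 ± 0.19 (adjusted p = 0.00045). PIH1D1, of the HSP90-linked R2TP complex, was higher there by 1.62 ± 0.26 and TOMM34 by 1.07 ± 0.24.

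Prefoldin hands actin and tubulin to TRiC, and of 9 tested genes of prefoldin and the phosducin-like partners, 3 were higher and 0 lower in A375-BIR in dabrafenib, beside 22.6% and 20.2% of all genes. PFDN4 was at 158, 199 and 168 CPM in A375-BIR and at 77.0, 107 and 39.0 CPM in A375, a log2 difference of 1.10 ± 0.22 (adjusted p = 9.91e-05). VBP1 (1.05) and PDCL3 (1.18) also passed. In the A375 response 1 of the 9 rose and 1 fell, namely PFDN6 and PFDN5. In DMSO A375-BIR was above A375 for 4 and below it for 1, and in the A375-BIR response 0 passed.

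ER folding factors fell in A375 for 9 of 18 tested genes and rose for 2, beside 20.7% and 17.9% of all genes. SDF2L1 (-1.68 ± 0.28), PDIA6 (-1.55 ± 0.26) and CALR (-1.24 ± 0.22), the calcium-binding lectin chaperone, had the smallest adjusted p-values. In dabrafenib PDIA6 was at 221, 366 and 209 CPM in A375-BIR and at 118, 103 and 72.3 CPM in A375, a difference of 1.37 ± 0.22 (adjusted p = 2.48e-06). CALR was also higher there, by 0.99, and P4HB, a disulfide isomerase, lower by a log2 difference of -0.91, in a list with 3 higher and 3 lower. In the A375-BIR response 0 of the 18 passed, in DMSO A375-BIR was above A375 for 3 and below it for 9, and the difference between responses was positive for 7 and negative for 1.

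Of 12 tested mitochondrial partners, 1 was higher and 3 were lower in A375-BIR in dabrafenib, where 42.7% of all genes were called, and 1 was higher and 4 lower in DMSO. TRAP1, the mitochondrial HSP90, was at 80.3, 113 and 73.8 CPM in A375-BIR and at 46.6, 21.9 and 44.5 CPM in A375, a log2 difference of 1.29 ± 0.28 (adjusted p = 0.000243). TIMM44, which anchors HSPA9 at the import channel, was lower at 35.5, 32.7 and 20.4 CPM against 93.3, 89.9 and 100.2 CPM, a difference of -1.57 ± 0.25 (adjusted p = 4.22e-06). LONP1, a mitochondrial protease, differed by -0.95 ± 0.26. In the A375 response 1 rose and 3 fell, with TRAP1 at -1.61.

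HSF1 target genes outside the chaperone families were called in both directions. Of 14 tested, A375-BIR was above A375 for 4 and below it for 3 in dabrafenib, and above for 6 and below for 5 in DMSO, beside 42.7% and 51.8% of all genes called. In response to dabrafenib 3 rose and 3 fell in A375, and 0 rose and 1 fell in A375-BIR. BAG3, CHORDC1, AHSA1, STIP1 and FKBP4 are also on the list of co-chaperones and are counted in both. STIP1 and FKBP4 were among the 3 that fell in A375. SERPINH1, the collagen chaperone HSP47, was at 90.5, 122 and 66.2 CPM in A375-BIR in dabrafenib and at 20.3, 43.9 and 16.7 CPM in A375, a log2 difference of 1.70 ± 0.30 (adjusted p = 1.64e-05). CRYAB, a small HSP also named HSPB5, was at 0, 1.72 and 2.54 CPM (2 counts) against 99.3, 125 and 83.5 CPM (121 counts). The CRYAB ratio, A375 to A375-BIR, was 110 with a counting interval of 29.7 to 916, and the libraries did not overlap. In DMSO CRYAB had 0 counts in A375-BIR and 26.0 CPM in A375. The exact counting interval of that ratio, A375 to A375-BIR, starts at 18.9. Within A375 it rose by 2.02 ± 0.34 (adjusted p = 1.49e-05). Of HSF2, HSF4 and HSBP1, only HSBP1 passed, higher in A375-BIR in dabrafenib (0.52) and lower with the drug in A375 (-1.14).

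Counts of some members are less certain than their errors show. In GENCODE 29, 15 members have pseudogenes named by the member's symbol, the letter P and a number, 90 in all. Among them are 26 for HSPE1, 17 for HSPD1, 17 for HSPA8, 9 for DNAJC19 and 6 for DNAJA1. Pseudogenes with other forms of name were not counted, so other members, the HSP90 genes among them, may have some too. None of the 90 is among the listed identifiers, and 40.0 to 52.5% of the reads in each human library were set aside as not unique. Exonic bases are shared with another listed gene on the same strand by 8 members and on the opposite strand by 31, and the strand setting of the counting is not given in the sources used here.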

How the data were processed

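The deposited values are raw counts of 3′ tag reads (QuantSeq FWD, single-end) per gene, made by the authors on build hg38 per the submitters' processing notes; sources used here do not give the aligner, counter, annotation or strand setting. Lines for reads given to no gene stayed out of library sizes. Symbols and coordinates came from GENCODE 29 (33132 identifiers matched). All 10 human libraries were fitted together with edgeR 4.0.16 in R 4.3.3: quasi-likelihood F test, TMM scaling, filterByExpr with a minimum count of 10 (10236 genes tested), 1 coefficient per group, 6 residual degrees of freedom, biological coefficient of variation 0.136, Benjamini-Hochberg adjustment over all genes and a threshold of 0.05. CPM use TMM-scaled totals, and the SE is the log2 change over the square root of F. Counting intervals are exact at 95%. The code was tested on simulated data for the response of A375-BIR only, with changed genes at a mean count of at least 50. Tests that use the single A375 DMSO library were not checked this way. Alternatives were DESeq2 1.42.0, RLE scaling, other filters, fewer groups, a replicate block, leaving out each library, and thinning, chosen after seeing the data. Replicates of a group differed by more than sampling noise, but A375 dabrafenib replicates 1 and 2 only by little (chi-square per degree of freedom 1.09). The other pairs of that group were at 2.00 and 2.45. A375-BIR pairs were at 1.29 to 1.74 in DMSO and 4.26 to 4.89 in dabrafenib, so spread was unequal between groups that share 1 estimate. Members and lists were chosen with earlier results of these data known. The naming rule took HSF1, up to 8 called members per comparison with the smallest p, and the most counted member of each family. These are 24 members. Others are named to account for the members, some with values in each library, and from each other list up to 3 genes per comparison. The values of 1 gene on these lists are not reported here.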

Additional observations from a re-analysis of the deposited data

Results flagged for a closer look

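A test of the difference between the lines' responses to dabrafenib (A375-BIR minus A375, log2) passed for 19 members, each resting on the single A375 DMSO library. It was positive for HSPB1 (1.71), DNAJC11 (1.33), CCT3 (1.21), CCT7 (1.18), HSP90AB1 (1.17), HSPD1 (1.05), HSPA8 (1.02), HSP90B1 (1.01) and DNAJC8 (0.78). It was negative for DNAJB4 (-3.80), HSPA2 (-3.44), DNAJB9 (-3.40), HSPB8 (-3.35), HSPA13 (-2.44), DNAJC6 (-2.41), HSPA1B (-2.07), DNAJC19 (-2.07), DNAJC1 (-1.24) and HSF1 (-1.08). HSPB8 had 2 counts and DNAJC6 4 counts in that library. Leaving out 1 library at a time ended 10 of the 19 calls at least once. The call of DNAJC8 was lost in 7 of 9 fits, those of DNAJC6 and HSPA8 in 5, that of DNAJC11 in 4 and that of HSP90B1 in 3. HSPB8 was lost in 4 and HSPA2 in 3 of the 8 fits that tested them. Each of these losses except that of HSP90B1 included the fits without A375-BIR DMSO replicate 1, A375-BIR DMSO replicate 2 and A375-BIR dabrafenib replicate 1. HSP90B1 was lost without A375-BIR DMSO replicate 1 and without A375 dabrafenib replicate 1 or 2. DNAJC19 was lost without A375 dabrafenib replicate 2 alone, and HSF1 and HSPA1B without A375-BIR DMSO replicate 1 alone.

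The files of A375 DMSO replicates 2 and 3 hold 224221 and 652439 counts on mouse gene identifiers, in samples labelled as the human line. They were used in no comparison.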

How the results depend on the processing

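Counts of members called depended on the library set and depth. In A375-BIR the count of 0 became 1 with no filter on low counts and 0 to 3 when 1 library was left out. For the response of A375 (30) the range without 1 library was 25 to 34, and thinning to the smallest total gave 14. For the lines in dabrafenib (27) it was 18 to 29, with 17 after thinning and 17 at a mean count of at least 50. For the lines in DMSO (24) it was 21 to 30, with 9 after thinning and 13 at a mean count of at least 50. For the difference between responses (19) it was 11 to 25, the lowest without A375-BIR DMSO replicate 1 and 12 without A375 dabrafenib replicate 2, with 9 by DESeq2, 10 at a mean count of at least 50 and 6 after thinning. RLE scaling gave 0, 30, 27, 24 and 19.

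Same-numbered libraries had correlations of -0.33 to 0.25 in their deviations from group means, and differently numbered libraries -0.23 to 0.38. Between the lines in dabrafenib the same-numbered values were 0.06 to 0.25 and the others -0.22 to 0.15. With 3 libraries in a group these values cannot show whether the replicate numbers pair the samples. A replicate block gave 0, 28, 27, 20 and 15 calls. Sign changes were counted over the 24 members of the naming rule, which leaves out TCP1, HSPA8 and HSPA4, for example. Where the main fit or the alternative called the member, sign changed in 2 values. These were DNAJB1 in A375 after thinning (0.0045) and HSPA5 between the lines in dabrafenib without A375-BIR dabrafenib replicate 2. The HSPA5 value was -0.49, in a range of -0.49 to 0.28 without 1 library. For the DNAJB1 change the cause was not tested. Of the other values of these 24 members, 1791 kept their side of the threshold, 67 lost and 21 gained a call. The 1791 can include sign changes of values called in neither fit, which were not counted. Called in every fit without 1 library were 22 of 30, 17 of 27, 17 of 24 and 9 of 19 members. Called in every setting, thinning included, were 14 of 30, 14 of 27, 8 of 24 and 6 of 19. Between the lines in dabrafenib, HSF1, HSPA4, DNAJB1 and CCT3 lost their calls when only the compared groups were fitted. DESeq2 also lost HSF1, HSPA4 and DNAJB1 there, among others. At these depths a member with a few counts in a group has wide errors, and a p over the threshold does not show equal levels.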
